A study of Mus musculus with 35 samples.

Results

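Expression of 10 genes of transforming growth factor beta (TGF-beta), activin and bone morphogenetic protein (BMP) signalling was described in CD8 T cells of mice with an intact, a heterozygous floxed or a homozygous floxed Dot1l gene. The members were chosen by name: the TGF-beta receptor genes Tgfbr1 and Tgfbr2, the activin receptor gene Acvr1b, the BMP coreceptor gene Rgmb, the signal transducer genes Smad2, Smad3 and Smad4, and the inhibitor genes Smad7, Ski and Skil. They were chosen with earlier results of these data known. All 10 were found among the 52636 genes counted, and all 10 were among the 10296 genes with enough counts to be tested. RNA was sequenced from CD8 T cells that had been sorted from C57BL/6 mice into 3 subsets, namely thymus CD8 single positive cells, spleen naive cells (CD44- CD62L+) and spleen memory cells (CD44+ CD62L+). The KO groups had the genotype Lcre+/-;Dot1Lfl/fl, the Het groups Lcre+/-;Dot1Lfl/wt and the WT groups Lcre+/-;Dot1Lwt/wt, so every mouse, controls included, carried 1 Cre allele, whose driver the labels do not spell out. Each genotype and subset had 4 libraries, except WT thymus with 3, which made 35 libraries in 9 groups. The labels give no ages, and they do not say that the libraries of a group came from separate mice, so each p-value reflects sample-to-sample spread, which may be technical.

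Ligands of the TGF-beta family bind pairs of type I and type II receptor kinases. The type I receptor then phosphorylates a receptor-regulated SMAD, SMAD2 or SMAD3 for TGF-beta and activin and SMAD1, SMAD5 or SMAD9 for most BMPs, which joins SMAD4 and enters the nucleus. SMAD7, SKI and SKIL (also called SnoN) restrain the pathway at the receptor or on chromatin. In T cells TGF-beta is known for holding back activation and effector differentiation, for its part in the homeostasis of naive cells, and for inducing the integrin CD103 on resident memory cells. DOT1L methylates lysine 79 of histone H3 in the body of transcribed genes.

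Depth was 4809509 to 16879636 counts per library, with a median of 10406516. Levels are given as CPM (library-size scaled counts) after TMM scaling, as mean ± SD of the libraries of a group. A gene is called when its adjusted p is under 0.05 in a quasi-likelihood test fitted over all libraries and all tested genes. Dot1l itself averaged 77.3, 55.7 and 45.8 CPM in KO thymus, naive and memory libraries and 67.0, 49.5 and 45.4 CPM in the WT libraries of the same subsets. Those levels are sums over all exons of Dot1l, and since the floxed exons are not named in the labels, they cannot serve as a check of the deletion. All 11 T cell markers had counts in every group, with a summed level of 1089 to 1548 CPM per library. Cd8a nevertheless had a mean of only 92.0 counts and Cd3d of 21.3, against 10190 for Lck, and 3, 3 and 5 of the 11 were called lower in KO than in WT thymus, naive and memory libraries. Natural killer and myeloid lists stayed at or below 11.4 and 25.4 summed CPM in every library, although in thymus the myeloid list was higher in KO (1.02 to 1.75) than in WT libraries (0.259 to 0.814). A list of 7 CD4 T cell genes stood at 16.1 to 26.2 summed CPM in KO memory and 7.85 to 12.2 in WT memory libraries, which did not overlap. In naive cells that list stood at 4.05 to 11.8 summed CPM in KO and 1.08 to 4.60 in WT libraries, and in thymus at 3.72 to 5.77 in KO and 4.53 to 6.47 in WT libraries. Cd4 itself had at most 2 counts in any library, while Zbtb7b reached 294, Ctla4 68 and Foxp3 22. Only 3 of the 7 CD4 T cell genes were tested. In KO against WT memory libraries 1 of them was called higher and 1 lower (median log2 fold change -0.77). In naive cells 1 was higher and 0 lower, and in thymus 0 were called. B cell genes reached 262.5 summed CPM in KO naive replicate 4. Other genotypes had raised sums too, at 171.3 in WT memory, 113.2 in WT naive and 102.9 in Het memory replicate 4. The double positive thymocyte list stood at 21.5 to 34.7 summed CPM in KO thymus libraries and 12.6 to 20.9 in WT thymus libraries. A list of 9 memory phenotype genes, of which Eomes and Tbx21 are also among the pathway's targets below, summed to 222 to 286 CPM in KO thymus, 469 to 1325 in KO naive and 2281 to 2589 in KO memory libraries. In the WT libraries the same sum was 97.6 to 123 CPM in thymus, 133 to 217 in naive and 992 to 1209 in memory libraries. KO naive replicate 3, with 1325 CPM, stood apart from the other 3 KO naive libraries (469 to 610), and the Smad3 results in naive cells are given without it too. By Xist and 4 Y-linked genes it was also the 1 female library of its group, so sex and that library cannot be told apart within KO naive cells. Each group had 1 female library, except WT naive and WT memory with 2. The part of these marker differences in the results below was not tested. In bulk RNA, fewer cells of a type and less RNA per cell cannot be told apart.

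The 10 genes spanned more than 2 orders of magnitude in level when set per kilobase of exon. In WT naive libraries Smad4 stood highest at 266 CPM per kb, followed by Ski (55.4), Smad3 (45.3), Smad7 (32.3), Smad2 (22.7), Tgfbr2 (17.4), Tgfbr1 (6.79), Acvr1b (5.43), Skil (4.03) and Rgmb (0.63 CPM per kb). The library values of neighbours in that order did not overlap. Smad4 was the highest and Rgmb the lowest of the 10 in all 9 groups, and Rgmb rested on 5 to 89 counts per library. Over the 9 groups the highest group mean exceeded the lowest 5.09-fold for Rgmb, 3.41-fold for Smad3, 2.13-fold for Tgfbr1, 2.12-fold for Skil, 1.81-fold for Ski, 1.80-fold for Smad4, 1.70-fold for Acvr1b, 1.60-fold for Smad7, 1.33-fold for Tgfbr2 and 1.31-fold for Smad2. When the 9 groups were ordered by mean, most neighbours overlapped in their library values. At most 3 of the 8 neighbouring pairs stood apart for any gene, and none did for Acvr1b, Tgfbr2 and Ski.

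**Figure D1:**
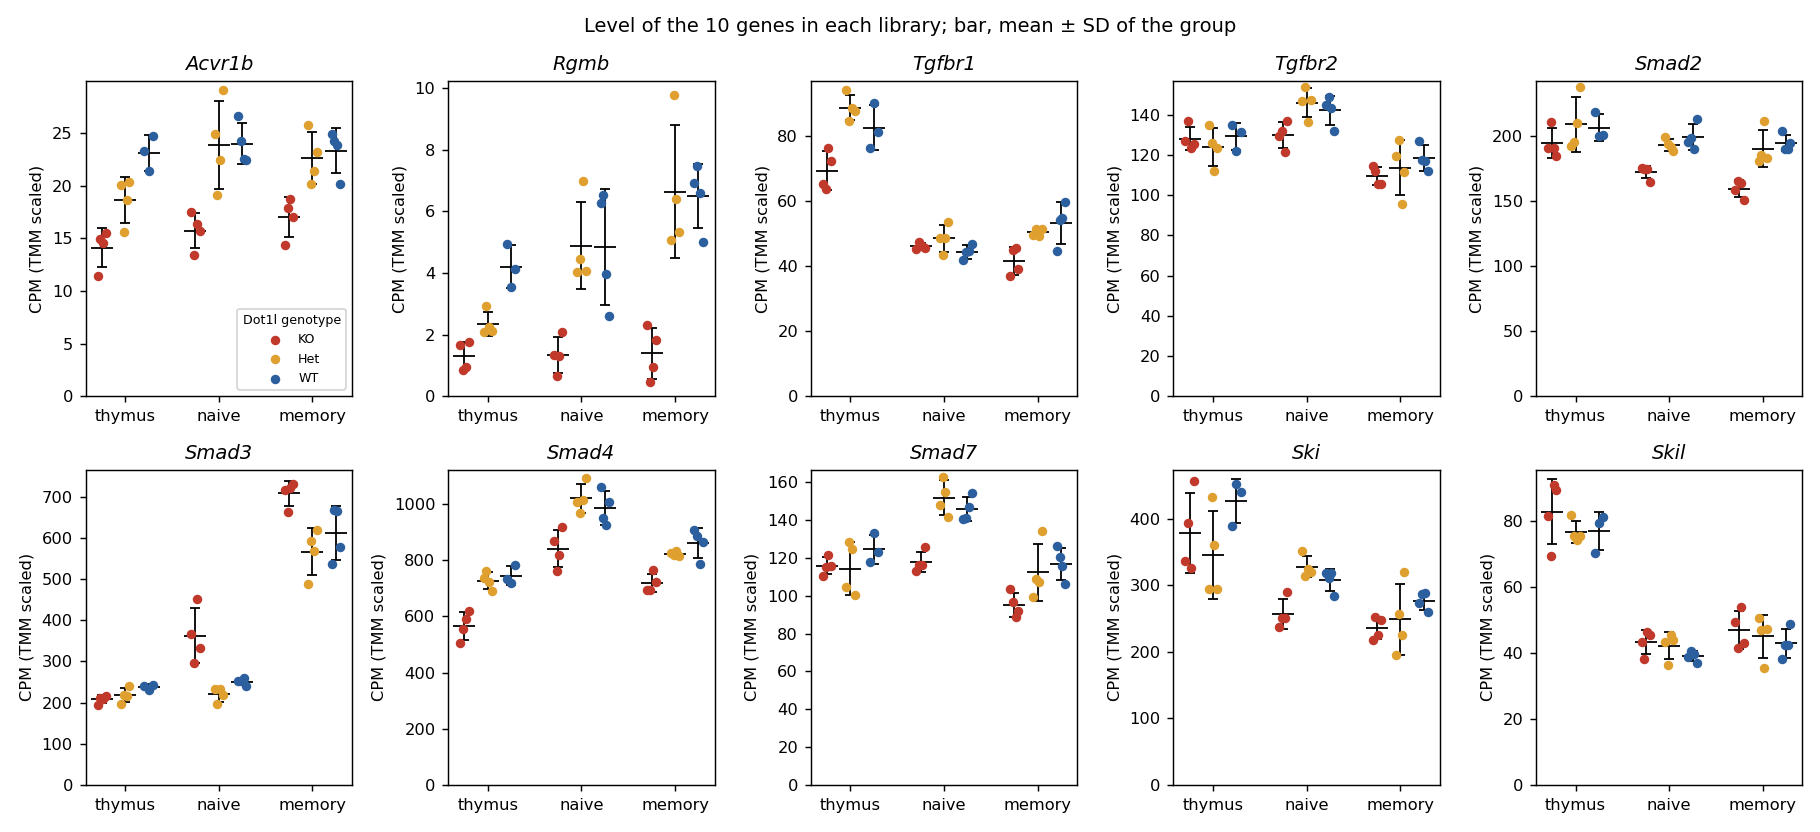
Level of each of the 10 genes (y axis, TMM-scaled CPM from 0, a separate scale per gene) in every library of the KO, Het and WT groups of each subset (x axis). Points are libraries and bars the group mean ± SD; Rgmb is low in all KO groups (means 1.31 to 1.39 CPM), and Smad3 is highest in memory cells of each genotype.

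The first question the design poses is how the genes differ between KO and WT cells of 1 subset. In KO thymus libraries 4 of the 10 members were called lower than in WT thymus libraries and none higher, where 18.6% of all tested genes were called (11.9% higher, 6.77% lower). In KO naive libraries 5 were called lower and 1 higher than in WT naive libraries, with 18.2% of all genes called (11.1% higher, 7.11% lower). In KO memory libraries 6 were called lower and none higher, with 22.2% of all genes called (12.8% higher, 9.32% lower). Since the members were chosen with earlier results of these data known, these counts are a description. Without KO naive replicate 3 the naive count was likewise 1 higher and 5 lower. DESeq2 called 4, 6 and 6 members in thymus, naive and memory cells. The shares of all genes above are those of edgeR and not of DESeq2. The median log2 fold change of the 10 members stood at -0.19 (thymus), -0.22 (naive) and -0.27 (memory), beside 0.02, 0.00 and 0.01 over all tested genes. When each library was instead centred on its mean log level, the median of all genes moved by -0.106 (thymus), -0.112 (naive) and -0.113 (memory). The calls among all 10296 genes were then 886 higher and 1342 lower in thymus, in place of 1222 and 697, 886 and 1612 in naive, in place of 1147 and 732, and 1019 and 1812 in memory cells, in place of 1323 and 960. Among the members 6, 7 and 8 were then lower, and 1 (Smad3, naive) higher. No call of a member turned round under that centring or under RLE scaling.

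**Figure D2:**
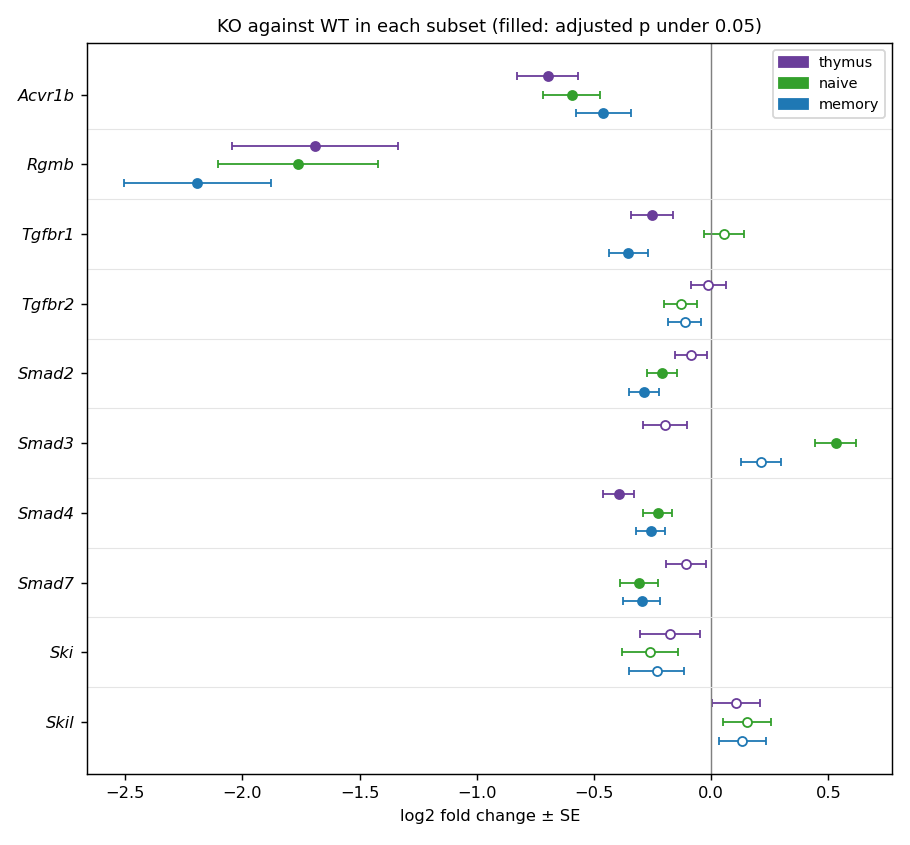
Log2 fold change ± SE of KO against WT libraries (x axis) for each of the 10 genes (y axis) in thymus, naive and memory cells. Filled points have an adjusted p under 0.05; Rgmb lies between -2.19 and -1.69 and Acvr1b between -0.70 and -0.46, while Smad3 is above 0 in naive cells (0.53) and not in thymus (-0.20).

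Of the receptors, Rgmb and Acvr1b were lower in KO than in WT libraries of every subset. Rgmb (chr17:15803188-15831039, minus strand, GRCm38) encodes a membrane-anchored coreceptor that binds BMPs and is also known as a ligand of PD-L2. Its level was 1.65, 0.854, 0.961 and 1.75 CPM in KO thymus libraries, against 4.93, 3.55 and 4.14 CPM in WT thymus libraries. Naive libraries held 1.35, 0.657, 1.29 and 2.07 CPM in KO cells, against 6.28, 6.52, 3.98 and 2.62 CPM in WT cells. In memory cells it stood at 2.32, 0.469, 0.957 and 1.83 CPM in KO libraries, against 6.91, 7.48, 6.58 and 5.02 CPM in WT libraries. Every KO library was below every WT library of its subset, and the WT naive libraries were the most spread out. The memory difference, a log2 fold change of -2.19 ± 0.31 SE (adjusted p = 7.1e-07), left KO cells at 0.219 times the WT level. It lay beside -1.69 ± 0.35 in thymus (adjusted p = 0.000445) and -1.76 ± 0.34 in naive cells (adjusted p = 0.00014). Mean levels were 1.31, 1.34 and 1.39 CPM in KO thymus, naive and memory libraries, and 4.20, 4.85 and 6.5 CPM in the WT libraries of those subsets.

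Acvr1b (chr15:101174067-101213684, plus strand) encodes ALK4, the type I receptor of activins and nodal, which phosphorylates SMAD2 and SMAD3. In the thymus it was at 11.4, 14.9, 14.6 and 15.5 CPM in KO libraries and 23.3, 21.4 and 24.8 CPM in WT libraries. In naive cells its values were 17.5, 13.5, 16.3 and 15.7 CPM in KO libraries and 26.6, 24.3, 22.5 and 22.5 CPM in WT libraries. Memory cells had 14.3, 17.9, 18.7 and 17.1 CPM in KO libraries and 24.9, 24.3, 23.9 and 20.2 CPM in WT libraries. KO and WT values did not overlap in any subset, and the WT level was nearly level across the subsets (means 23.1, 24.0 and 23.3 CPM). The log2 fold change was -0.70 ± 0.13 in thymus (adjusted p = 7.5e-05), -0.60 ± 0.12 in naive (adjusted p = 0.000301) and -0.46 ± 0.12 in memory cells (adjusted p = 0.00311). Neither gene's KO effect was called different between naive and thymus or between memory and naive cells (adjusted p of 0.828 and 0.940 for Acvr1b, 0.960 and 0.931 for Rgmb). Across the 9 group means of log2 CPM, Acvr1b and Rgmb had a Pearson r of 0.937, the highest of the 45 pairs of members. These points share libraries and genotypes, and the value is a description.

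Because Rgmb and Acvr1b moved together, and Smad3 moved the other way in naive cells, the sequences around the starts of these 3 genes are shown (RefSeq, GRCm38.p6, 250 bases before to 50 after the annotated start, 5′ to 3′ on the gene's strand). Capitals mark 4 motifs searched on both strands: the SMAD-binding core CAGAC, the GC box GGGCGG, the TATA box TATAAA and the CCAAT box CCAAT. The windows, for Rgmb 1 of the 3 that the table lists, are chr17:15831016-15831315 (minus strand) for Rgmb, chr15:101173822-101174121 (plus strand) for Acvr1b and chr9:63757945-63758244 (minus strand) for Smad3.
Rgmb: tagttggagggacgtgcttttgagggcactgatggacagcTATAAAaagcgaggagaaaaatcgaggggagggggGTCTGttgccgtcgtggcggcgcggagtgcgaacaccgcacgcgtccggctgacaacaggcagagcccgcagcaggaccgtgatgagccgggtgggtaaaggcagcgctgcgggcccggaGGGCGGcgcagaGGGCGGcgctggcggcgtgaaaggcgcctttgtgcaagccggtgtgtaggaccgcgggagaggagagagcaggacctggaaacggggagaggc
Acvr1b: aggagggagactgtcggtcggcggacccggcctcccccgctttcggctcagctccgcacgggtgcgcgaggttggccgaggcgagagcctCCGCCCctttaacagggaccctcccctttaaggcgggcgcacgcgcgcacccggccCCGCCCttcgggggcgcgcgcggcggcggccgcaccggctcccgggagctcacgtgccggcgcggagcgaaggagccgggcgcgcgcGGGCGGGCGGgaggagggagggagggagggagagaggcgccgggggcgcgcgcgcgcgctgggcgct
Smad3: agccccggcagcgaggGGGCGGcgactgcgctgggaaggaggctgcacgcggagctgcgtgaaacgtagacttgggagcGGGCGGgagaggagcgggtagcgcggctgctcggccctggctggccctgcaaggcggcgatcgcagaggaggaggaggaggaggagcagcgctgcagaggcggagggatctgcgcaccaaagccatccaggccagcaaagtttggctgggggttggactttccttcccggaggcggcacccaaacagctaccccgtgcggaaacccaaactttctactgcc
The Rgmb window held 1 TATA box, 1 SMAD core (read as GTCTG on this strand) and 2 GC boxes, with 66% G or C and 30 CpG. The Acvr1b window held 4 GC boxes, of which a pair overlap, with 79.7% G or C and 51 CpG. The Smad3 window held 2 GC boxes, with 67.7% G or C and 25 CpG, so the GC box was the only one of these motifs present in all 3. It is not particular to them: the windows of Tgfbr1 and Ski, not shown, held 2 and 6 GC boxes, and that of Tgfbr2 held 0. Of 32851 windows of the same length, 49.6% held the SMAD core, 35.7% the GC box, 13.6% the TATA box and 37.4% the CCAAT box on either strand. A match of letters is a description and not a binding site.

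The TGF-beta receptors themselves differed less. Tgfbr1 (chr4:47353222-47414931, plus strand) encodes ALK5, the type I receptor of TGF-beta. In the thymus it was at 65.3, 63.7, 76.2 and 72.3 CPM in KO libraries and 76.3, 90.1 and 81.3 CPM in WT libraries, 2 sets that stood barely apart. In memory cells it was at 36.9, 45.1, 45.5 and 39.0 CPM in KO libraries and 44.5, 54.1, 54.7 and 59.8 CPM in WT libraries, which overlapped through WT replicate 1. Its log2 fold change was -0.25 ± 0.09 in thymus (adjusted p = 0.0380) and -0.35 ± 0.08 in memory cells (adjusted p = 0.00132), both called lower, and 0.05 ± 0.09 in naive cells (adjusted p = 0.756). The thymus call was lost without KO thymus replicate 1 (adjusted p = 0.0940), KO thymus replicate 2 (0.122), WT thymus replicate 2 (0.275) or WT thymus replicate 3 (0.0629). Tgfbr2 (chr9:116084293-116175360, minus strand), the type II receptor that binds TGF-beta first, was not called in any subset. It averaged 128 ± 5.90 CPM in KO and 129 ± 6.72 CPM in WT thymus, 130 ± 6.60 and 142 ± 7.23 CPM in KO and WT naive, and 109.5 ± 4.63 and 118 ± 6.36 CPM in KO and WT memory libraries. Its log2 fold changes were -0.01 ± 0.08, -0.13 ± 0.07 and -0.11 ± 0.07, with adjusted p of 0.947, 0.229 and 0.294.

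Of the receptor-regulated SMADs, Smad2 and Smad3 went opposite ways in naive cells. Smad3 (chr9:63646767-63757994, minus strand) was at 367, 297, 453 and 333 CPM in KO naive libraries and 252, 253, 259 and 241 CPM in WT naive libraries. All KO naive libraries were above all WT naive libraries, with KO replicate 3 highest. Smad3 rose by a log2 fold change of 0.53 ± 0.09 (adjusted p = 1.2e-05), 1.44-fold, by 0.40 without KO naive replicate 3 (adjusted p = 0.000318), and by 0.55 with sex as a covariate (adjusted p = 1.5e-06). KO naive replicate 3 also had the highest memory phenotype sum (1325 CPM). KO naive replicate 2 had the lowest of both among KO naive libraries (297 CPM of Smad3, 469 CPM of the list). Replicates 1 and 4 had nearly the same sum (608.5 and 610.3 CPM) but 367 and 333 CPM of Smad3. Of the 9 memory phenotype genes, 8 were called higher in KO naive libraries. The part of that list in the Smad3 difference was not tested.

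In memory cells Smad3 was at 716, 664, 722 and 731 CPM in KO libraries and 536, 669, 665 and 578 CPM in WT libraries, which overlap. Its log2 fold change of 0.21 ± 0.09 was not called there (adjusted p = 0.0724) but passed in some other settings, among them only the compared libraries (adjusted p = 0.0265), and without WT memory replicate 2 (0.0427) or 3 (0.0464). In the thymus it was at 194, 211, 209 and 217 CPM in KO libraries, all below 241, 231 and 243 CPM in WT libraries. That log2 fold change of -0.20 ± 0.09 was not called (adjusted p = 0.15) and passed with only the compared libraries (adjusted p = 0.0178), with no filter on low counts (0.0493) and with centring (0.0130). The KO effect on Smad3 was larger in naive cells than in thymus by 0.73 ± 0.13 on the log2 scale (adjusted p = 0.000251), and by 0.60 without KO naive replicate 3 (adjusted p = 0.000777). Smad3 was the only member called in that comparison, in which 6.34% of all genes were called (3.01% higher, 3.33% lower).

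Smad2 (chr18:76241580-76310963, plus strand) was at 175, 174, 174 and 165 CPM in KO naive libraries and 195, 198, 189 and 213 CPM in WT naive libraries. Memory libraries held 158, 165, 163 and 150 CPM in KO cells and 203, 190, 190 and 194 CPM in WT cells. The groups did not overlap in either subset, and the changes were small: -0.21 ± 0.06 in naive (adjusted p = 0.0150) and -0.29 ± 0.06 in memory cells (adjusted p = 0.000526). In thymus the value was -0.09 ± 0.07 (adjusted p = 0.446). The naive call was lost without WT naive replicate 4 (adjusted p = 0.0767) and with no filter on low counts (0.0699). The ratio of Smad3 to Smad2 within a library, each per kilobase, was 3.34 ± 0.59 in KO naive libraries against 2.01 ± 0.16 in WT naive libraries, and 7.07 ± 0.55 in KO memory libraries against 5.01 ± 0.68 in WT memory libraries. In both subsets the lowest KO ratio (2.70 naive, 6.38 memory) was above the highest WT ratio (2.17 naive, 5.59 memory). Without KO naive replicate 3 the KO naive ratio was 3.08 ± 0.33 (n = 3). In thymus the ratio was 1.70 ± 0.13 in KO and 1.84 ± 0.09 in WT libraries, which overlap.

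Smad4 (chr18:73639009-73703780, minus strand), the partner shared by all receptor-regulated SMADs, was lower in KO libraries of all 3 subsets. Thymus libraries had 505, 554, 590 and 618 CPM in KO cells and 733, 718 and 783 CPM in WT cells. In naive cells it was at 867, 761, 820 and 918 CPM in KO libraries and 1063, 949, 926 and 1006 CPM in WT libraries. In memory cells it was at 696, 696, 765 and 722 CPM in KO libraries and 909, 885, 787 and 863 CPM in WT libraries. No KO library reached the lowest WT library of its subset, although in naive cells the closest pair lay only 918 against 926 CPM apart. The log2 fold changes were -0.39 ± 0.07 in thymus (adjusted p = 1.7e-05), -0.23 ± 0.06 in naive (adjusted p = 0.00574) and -0.26 ± 0.06 in memory cells (adjusted p = 0.0013), that is 0.761, 0.854 and 0.836 times the WT level.

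Of the inhibitors, Smad7 fell in the spleen subsets, and Ski and Skil were not called. Smad7 (chr18:75367529-75395935, plus strand), which blocks type I receptors and is itself induced by TGF-beta, was at 113, 117, 116 and 126 CPM in KO naive libraries and 141, 141, 147 and 154 CPM in WT naive libraries. Memory libraries had 104, 96.7, 88.6 and 92.2 CPM in KO cells and 126, 121, 116 and 106 CPM in WT cells. KO and WT values were apart in both subsets, more narrowly in memory cells (highest KO 104, lowest WT 106 CPM). Smad7 fell by 0.31 ± 0.08 on the log2 scale in naive cells (adjusted p = 0.00392) and by 0.30 ± 0.08 in memory cells (adjusted p = 0.00448), and was at -0.11 ± 0.09 in thymus (adjusted p = 0.456). Ski (chr4:155154075-155222592, minus strand), a corepressor that binds SMADs on DNA, averaged 257 ± 22.3 CPM in KO and 308 ± 16.6 CPM in WT naive libraries, and 236 ± 16.9 CPM in KO and 277 ± 13.6 CPM in WT memory libraries. Its memory groups were apart (highest KO 252, lowest WT 259 CPM) but its log2 fold changes, -0.17 ± 0.13, -0.26 ± 0.12 and -0.23 ± 0.12 in thymus, naive and memory cells, had adjusted p of 0.402, 0.142 and 0.182. In a fit of just the KO and WT libraries of the subset, Ski was called lower in naive (adjusted p = 0.00982) and memory cells (0.00413). Skil (chr3:31095058-31122577, plus strand), a related corepressor, had log2 fold changes of 0.11 ± 0.10, 0.15 ± 0.10 and 0.13 ± 0.10, with overlapping groups and adjusted p of 0.565, 0.357 and 0.399.

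KO and Het libraries were compared next, with the same KO libraries on 1 side. In thymus 3 members were called lower (19.1% of all genes called, 11.9% higher and 7.28% lower), in naive cells 5 lower and 1 higher (16.9%, with 10.5% higher and 6.5% lower), and in memory cells 6 lower and 1 higher (20.2%, with 11.6% higher and 8.59% lower). With centring, the calls among all 10296 genes were 875 higher and 1525 lower in thymus, in place of 1221 and 750, 867 and 1543 in naive, in place of 1076 and 669, and 931 and 1914 in memory cells, in place of 1198 and 884. Smad3 averaged 363 ± 66.5 CPM in KO and 220 ± 17.8 CPM in Het naive libraries (log2 fold change 0.72 ± 0.09, adjusted p = 3.39e-08, and 0.59 without KO naive replicate 3). In memory cells Smad3 averaged 708 ± 30.3 CPM in KO and 567 ± 56.8 CPM in Het libraries, with no overlap, and was called (0.32 ± 0.09, adjusted p = 0.00468). That call was lost with centring (0.20, adjusted p = 0.0683). Rgmb was at -1.81 ± 0.33 in naive and -2.19 ± 0.32 in memory cells (adjusted p = 7.28e-05 and 1.17e-06). Ski was called lower against Het in naive cells (-0.35 ± 0.12, adjusted p = 0.0385), a call that 7 of the 8 fits without 1 library lost. In memory cells Smad7 overlapped between KO and Het libraries and was called (-0.24 ± 0.08, adjusted p = 0.0287), but not without Het memory replicate 4 (-0.14, adjusted p = 0.244). Without KO memory replicate 1 the calls in memory cells dropped to 4, since Acvr1b (adjusted p = 0.0582), Tgfbr1 (0.0887) and Smad4 (0.0607) lost theirs. Acvr1b also lost its call there without Het memory replicate 1 (0.0522), Smad4 without KO memory replicate 2 (0.0592), and Smad7 without KO memory replicate 3 (0.0825) or 4 (0.0712).

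Between Het and WT libraries no member was called in any subset by edgeR or DESeq2, where edgeR called 0% of all genes in thymus and naive cells and 0.00971% in memory cells. At an unadjusted p under 0.05 there were 3 members in thymus (Acvr1b, Rgmb and Ski), 1 in naive (Smad3) and 0 in memory cells. The share of all genes at that threshold was 6.18%, 2.67% and 5.12%. Het thymus libraries held 2.08, 2.91, 2.23 and 2.1 CPM of Rgmb, all above the KO thymus libraries (at most 1.75 CPM) and all below the WT thymus libraries (at least 3.55 CPM). The value against WT was -0.81 ± 0.33 (adjusted p = 0.776), and that of KO against Het -0.88 ± 0.35 (adjusted p = 0.0746). For Acvr1b the Het thymus libraries were also apart from both, with 20.1, 15.6, 18.6 and 20.3 CPM (-0.31 ± 0.13 against WT, adjusted p = 0.776). They were only barely apart from KO, whose highest thymus library was at 15.5 CPM. KO against Het was called for Acvr1b in thymus (-0.39 ± 0.12, adjusted p = 0.0191), a call lost without KO thymus replicate 1, Het thymus replicate 1 or Het thymus replicate 4 (adjusted p of 0.0804, 0.0566 and 0.0618). In the spleen, Het libraries overlapped WT libraries for both genes: Rgmb averaged 4.88 ± 1.41 CPM in Het and 4.85 ± 1.88 CPM in WT naive, and 6.64 ± 2.16 CPM in Het and 6.5 ± 1.05 CPM in WT memory libraries.

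The subsets were then compared within each genotype. From thymus to naive cells 2 members were called higher and 4 lower in KO (44.1% of all genes called, 22.4% higher and 21.7% lower), 5 and 2 in Het (39.5%, with 19.8% and 19.7%), and 2 and 3 in WT libraries (32.2%, with 15.3% and 16.9%). Tgfbr1 averaged 46.1 ± 0.96 CPM in KO naive and 69.4 ± 5.90 CPM in KO thymus libraries, and 44.3 ± 2.05 CPM in WT naive and 82.6 ± 6.98 CPM in WT thymus libraries. The log2 fold change of naive against thymus was -0.59 ± 0.08 in KO, -0.87 ± 0.08 in Het and -0.90 ± 0.09 in WT cells, and the difference between KO and WT was not called (0.31 ± 0.12, adjusted p = 0.140). Skil was likewise lower in naive cells, by -0.93 ± 0.10 in KO, -0.86 ± 0.10 in Het and -0.98 ± 0.11 in WT libraries. Smad4 was higher in naive than in thymus libraries of each genotype (0.57 ± 0.06 in KO, 0.49 ± 0.06 in Het, 0.40 ± 0.07 in WT). Tgfbr1 and Skil had a Pearson r of 0.907 over the 9 group means, again a description.

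Smad3 was called higher in naive than in thymus cells of KO mice (0.80 ± 0.09, adjusted p = 5.33e-10, and 0.66 without KO naive replicate 3), and stood at 0.01 ± 0.09 in Het (adjusted p = 0.919) and 0.08 ± 0.09 in WT libraries (adjusted p = 0.585). The test of that difference between KO and WT is the one given above, since it is the same contrast. Ski was lower in naive than in thymus libraries of KO (-0.56 ± 0.12) and WT mice (-0.47 ± 0.13), and not called in Het mice (-0.08 ± 0.12, adjusted p = 0.661), where the thymus libraries were split between 295 and 294 CPM (replicates 1 and 4) and 432 and 360 CPM (replicates 2 and 3). Rgmb was higher in naive than in thymus libraries of Het mice (1.03 ± 0.30, adjusted p = 0.0059), and was not called in KO (0.11 ± 0.38) or WT libraries (0.18 ± 0.32). Whether Het differed from KO or WT in this was not tested. Acvr1b, Tgfbr2 and Smad7 were also called higher in Het naive than in Het thymus libraries (0.36 ± 0.12, 0.24 ± 0.07 and 0.41 ± 0.08). The Acvr1b call was lost without Het thymus replicate 2 or Het naive replicate 4 (adjusted p of 0.0990 and 0.141), and the Tgfbr2 call without Het thymus replicate 3 (0.0697). Smad7 was called in WT libraries too (0.23 ± 0.09, adjusted p = 0.0400), a call that 4 of the 7 fits without 1 library lost. Smad2 was called lower in KO naive than in KO thymus libraries (-0.17 ± 0.06, adjusted p = 0.0232), but not without KO thymus replicate 2 (0.0757). In Het libraries it was at -0.11 ± 0.06 (adjusted p = 0.162), and was called without Het thymus replicate 1 (-0.17, adjusted p = 0.0390).

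From naive to memory cells Smad3 was the gene with the largest change among the 10 in each genotype. It averaged 708 ± 30.3 CPM in KO memory and 363 ± 66.5 CPM in KO naive libraries, 567 ± 56.8 CPM in Het memory and 220 ± 17.8 CPM in Het naive libraries, and 612 ± 65.6 CPM in WT memory and 251 ± 7.64 CPM in WT naive libraries. Smad3 was higher in memory cells by a log2 fold change of 0.97 ± 0.09 in KO (1.08 without KO naive replicate 3), 1.36 ± 0.09 in Het and 1.28 ± 0.09 in WT libraries, and the groups did not overlap in any genotype. In all, 1 member was called higher and 3 lower in KO (17.3% of all genes, 8.69% higher and 8.61% lower), 1 and 4 in Het (16.9%, with 8.31% and 8.57%), and 2 and 3 in WT libraries (15.1%, with 7.68% and 7.38%). Tgfbr2, Smad4 and Smad7 were called lower in memory than in naive cells of all 3 genotypes. Tgfbr2 was at -0.25 ± 0.07 in KO, -0.36 ± 0.07 in Het and -0.26 ± 0.07 in WT libraries, Smad4 at -0.23 ± 0.06, -0.31 ± 0.06 and -0.20 ± 0.06, and Smad7 at -0.31 ± 0.08, -0.43 ± 0.08 and -0.32 ± 0.08. Tgfbr2 and Smad7 had a Pearson r of 0.932 over the 9 group means. Tgfbr1 was called higher in memory than in naive cells of WT mice (0.26 ± 0.09, adjusted p = 0.0309) and not in KO (-0.15 ± 0.08, adjusted p = 0.262). Only 2 of the 8 fits without 1 library kept the WT call. The KO effect on Tgfbr1 in memory minus that in naive cells was -0.41 ± 0.12 and was not called (adjusted p = 0.0743). It was called with the replicate number as a block (adjusted p = 0.0475), without KO memory replicate 3 (0.0430) and without WT memory replicate 1 (0.0149). None of the members was called in that comparison by edgeR or DESeq2, where 1.79% of all genes were called (0.67% higher, 1.12% lower). At an unadjusted p under 0.05 there were 2 members (Tgfbr1 and Smad3) and 9.54% of all genes. Ski was called lower in Het memory than in Het naive libraries (-0.40 ± 0.12, adjusted p = 0.0178), and not without Het naive replicate 1, Het memory replicate 1 or Het memory replicate 3 (adjusted p of 0.0570, 0.0926 and 0.0672). The Smad4 call in WT libraries was lost without WT naive replicate 1, WT naive replicate 4 or WT memory replicate 3 (adjusted p of 0.101, 0.0620 and 0.130).

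**Figure D3:**
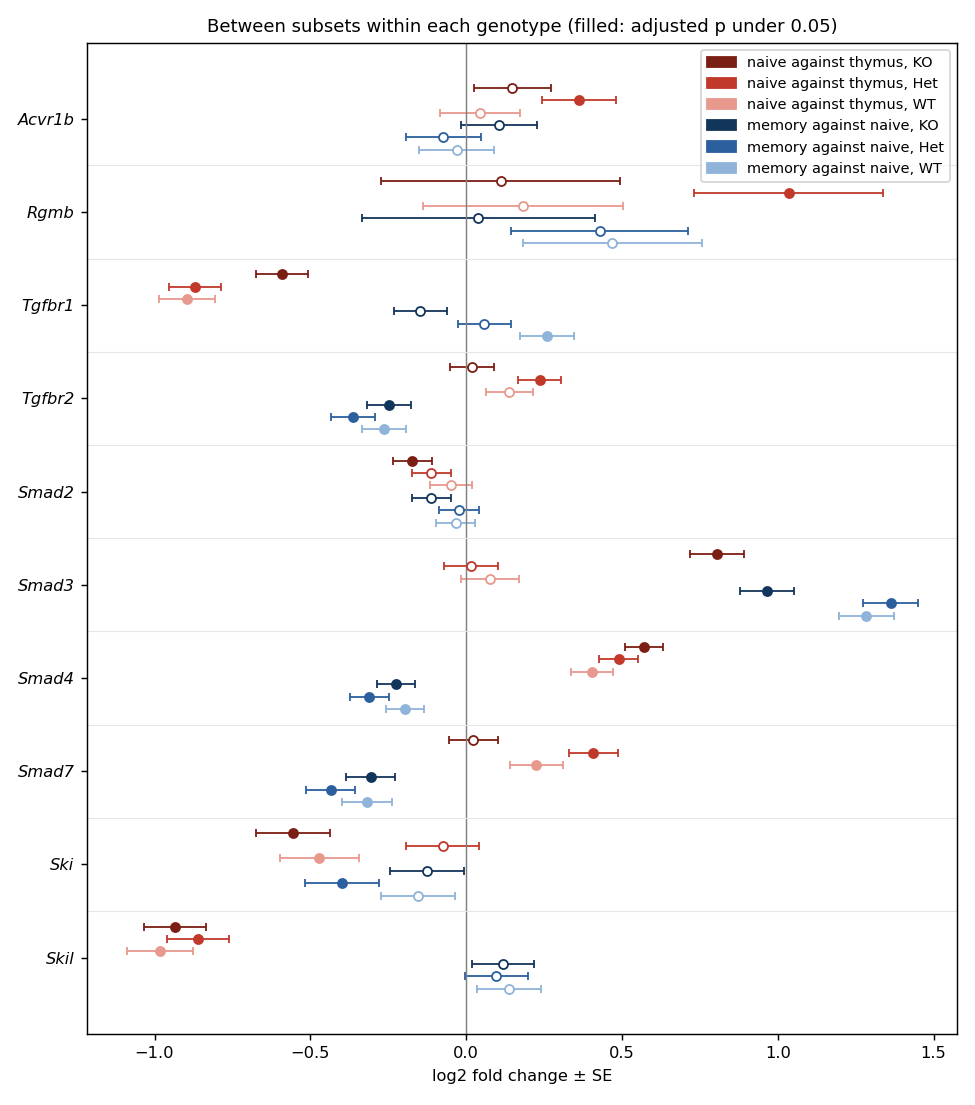
Log2 fold change ± SE (x axis) of naive against thymus and memory against naive libraries within each genotype, for each of the 10 genes (y axis). Filled points have an adjusted p under 0.05; Smad3 lies at 0.97 to 1.36 from naive to memory cells in all genotypes, and Tgfbr1 (-0.90 to -0.59) and Skil (-0.98 to -0.86) lie below 0 from thymus to naive cells.

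Around the 10 members, 112 further genes of the pathway were listed and 60 of them tested. In KO against WT libraries 17 of these were called higher and 5 lower in thymus, 21 and 7 in naive and 23 and 6 in memory cells, that is 36.7%, 46.7% and 48.3% of them, beside 18.6%, 18.2% and 22.2% of all genes. The lists were chosen with earlier results of these data known, so these shares are a description. Of the 60, 7 passed the filter on low counts only because of the KO libraries, and such genes could hardly be called lower. When the filter was computed without the KO libraries, 53 were tested, with 14 higher and 5 lower in thymus, 19 and 7 in naive and 19 and 6 in memory cells (35.8%, 49.1% and 47.2%, beside 18.3%, 17.6% and 21.2% of all genes). This filter was added after seeing the data, and all 10 members passed it. With centring the counts were 12 and 10 in thymus, 17 and 11 in naive and 20 and 13 in memory cells. Of 7 tested genes on the ligand list 4, 5 and 4 were higher in thymus, naive and memory cells and none lower. The list includes the protease gene Bmp1, which was among those called higher in each subset. Of the 7 listed genes 2 passed only because of the KO libraries, and without them 3, 4 and 3 of 5 were higher. Inhba, an activin subunit gene singled out after its values were seen, had 42 counts over the KO naive and 0 over the WT naive libraries, and 32 over the KO memory and 0 over the WT memory libraries. With 0 counts in both WT groups, Inhba could not have been called lower in those subsets. Bmp1, likewise singled out, encodes a protease and not a ligand, and had 105 counts over the KO naive and 4 over the WT naive libraries, and 127 over the KO memory and 7 over the WT memory libraries. Bmp7, which signals through BMP type I receptors, averaged 8.53 ± 0.637 CPM in KO and 3.29 ± 0.386 CPM in WT thymus (1.40 ± 0.27), 5.65 ± 2.68 and 0.53 ± 0.475 CPM in KO and WT naive (3.18 ± 0.37) and 21.8 ± 0.998 and 2.64 ± 0.725 CPM in KO and WT memory libraries (3.04 ± 0.25). Without WT naive replicate 3 its naive value was 4.08, and without KO naive replicate 3 it was 2.85. Tgfb3, a TGF-beta isoform, averaged 12 ± 2.75 CPM in KO and 2.90 ± 1.67 CPM in WT thymus libraries (1.98 ± 0.30, and 2.65 without WT thymus replicate 2), and rose by 2.51 ± 0.35 in naive and 2.37 ± 0.36 in memory cells. Some 12.4% of the exonic bases of Tgfb3 overlap Gm37804 and Gm48008, both on the opposite strand. The strand option of the counting is not given, so part of its counts could belong there. Tgfb1, the main isoform of lymphocytes, was not called, at -0.09 ± 0.13, 0.12 ± 0.13 and 0.15 ± 0.12 in thymus, naive and memory cells.

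Several other receptor genes rose. Of 10 tested, 3, 4 and 6 were called higher in thymus, naive and memory cells and none lower. Of the 9 that passed the filter without the KO libraries, 3, 4 and 5 were higher. Among all tested genes 11.9%, 11.1% and 12.8% were called higher in those subsets, and 6.77%, 7.11% and 9.32% lower. Acvr2a, a type II receptor that pairs with ALK4 for activin, averaged 37.3 ± 13.4 CPM in KO and 13.1 ± 1.17 CPM in WT naive libraries (1.52 ± 0.19, and 1.25 without KO naive replicate 3) and 100 ± 13.3 CPM in KO and 17.9 ± 2.79 CPM in WT memory libraries (2.49 ± 0.18). Within the exons of Acvr2a 7.84% of bases overlap Orc4 on the opposite strand. Acvr1, the BMP type I receptor ALK2, averaged 2.87 ± 0.662 CPM in KO and 0.519 ± 0.256 CPM in WT thymus libraries (2.32 ± 0.48, and 2.92 without WT thymus replicate 2). Tgfbr3, the TGF-beta coreceptor betaglycan, averaged 9.53 ± 1.57 CPM in KO and 3.81 ± 1.47 CPM in WT memory libraries (1.30 ± 0.18), and was not called in thymus or naive cells. Of 6 tested genes of latency and activation 3, 4 and 3 were higher and 0, 0 and 1 lower, with 2, 3 and 2 higher among the 4 that passed the filter without the KO libraries. Furin, the protease that cleaves TGF-beta precursors, averaged 136 ± 9.63 CPM in KO and 69.1 ± 4.16 CPM in WT naive libraries (0.98 ± 0.08), and rose by 0.80 ± 0.08 in memory cells. Mmp14, a membrane metalloprotease, rose by 1.57 ± 0.32 in thymus, where it averaged 13.8 ± 2.47 CPM in KO and 4.60 ± 0.418 CPM in WT libraries. It rose by 2.33 ± 0.45 in naive cells and was not called in memory cells (-0.19 ± 0.38).

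Of 8 other SMADs and partners 1 was called higher in each subset and none lower (in thymus 0 of the 7 that passed the filter without the KO libraries). That is near the share of all tested genes called higher, 11.9%, 11.1% and 12.8% in thymus, naive and memory cells. The share called lower was 6.77%, 7.11% and 9.32%, and both shares serve for the lists that follow. Of 2 tested extracellular inhibitors 1 was higher, in memory cells, a gene that passed only because of the KO libraries. A list of regulators, most but not all of them negative, went both ways, with 3, 3 and 4 of 16 higher and 3, 5 and 2 lower (median -0.03, -0.06 and -0.06). Usp9x, 1 of those higher in memory cells, encodes a deubiquitinase known to favour SMAD4 activity. Smurf1, a ubiquitin ligase that works with SMAD7 against receptors and SMADs, was lower in KO libraries of every subset, at 42.6 ± 4.08 CPM in KO and 60.6 ± 2.02 CPM in WT thymus libraries (-0.51 ± 0.09) and 36.8 ± 4.44 CPM in KO and 67.0 ± 4.01 CPM in WT memory libraries (-0.86 ± 0.08). Zeb1 and Zeb2 encode SMAD-binding zinc finger factors, of which ZEB2 is known as a repressor and ZEB1 can also act as an activator. Zeb1 fell by 0.54 ± 0.09 on the log2 scale in thymus, at 135 ± 8.66 CPM in KO and 196 ± 0.848 CPM in WT libraries, whereas Zeb2 rose by 3.37 ± 0.37 in memory cells, at 91.1 ± 12.8 CPM in KO and 8.77 ± 2.69 CPM in WT libraries. Target genes of TGF-beta in T cells also went both ways, with 3, 4 and 4 of 11 higher and 2, 2 and 3 lower. Eomes and Tbx21, T-box factors that TGF-beta is known to hold down, rose in thymus (2.29 ± 0.21 and 2.85 ± 0.40) and naive cells (1.28 ± 0.17 and 2.22 ± 0.26, and 1.12 and 1.85 without KO naive replicate 3). In memory cells Eomes rose (0.80 ± 0.16) and Tbx21 was not called (0.37 ± 0.22). Id2, a helix-loop-helix regulator, rose in memory cells (2.28 ± 0.17) and was not called in thymus (-0.22 ± 0.18) or naive cells (0.14 ± 0.17). Ccr7, a homing receptor, fell by 0.58 ± 0.09 on the log2 scale in naive cells. Itgae, which encodes CD103 and was singled out after its values were seen, averaged 1.44 ± 0.236 CPM in KO and 4.19 ± 0.674 CPM in WT memory libraries (-1.53 ± 0.24, adjusted p = 5.63e-06). It was not called in thymus (0.21 ± 0.14) or naive cells (-0.23 ± 0.13). The pathway genes were called alongside the memory phenotype list, of which 7, 8 and 5 of 9 genes were higher in KO thymus, naive and memory libraries, and whose part in these calls was not tested.

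**Figure D4:**
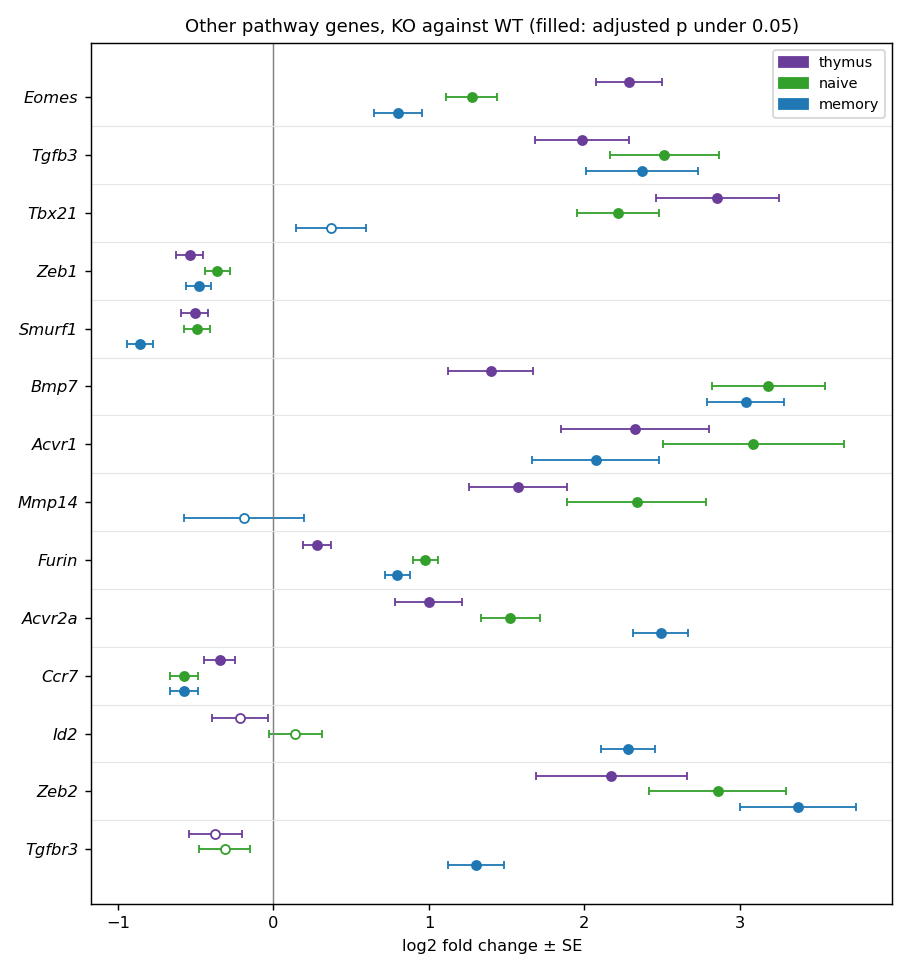
Log2 fold change ± SE of KO against WT libraries (x axis) for 14 other pathway genes (y axis), those named by lowest adjusted p in each subset. Filled points have an adjusted p under 0.05; Bmp7, Tgfb3, Acvr1, Acvr2a and Zeb2 are above 0 and Smurf1, Zeb1 and Ccr7 below 0 in thymus, naive and memory cells.

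The tested genes whose pattern over the 9 group means was most like each member were sought for the 6 members called in at least 2 subsets. They were Zdhhc18, Crbn and Fam53b for Acvr1b (Pearson r of 0.973, 0.966 and 0.947), Filip1l, Stap1 and Zdhhc18 for Rgmb (0.960, 0.955 and 0.955), and Smarcd1, Naa16 and Atxn10 for Tgfbr1 (0.992, 0.986 and 0.985). For Smad2 they were Cd6, Rdx and Rngtt (0.972, 0.971 and 0.970), for Smad4 Slain1, Atf7ip and Numb (0.991, 0.988 and 0.987), and for Smad7 Foxk1, Ccr7 and Piga (0.965, 0.953 and 0.947). Zdhhc18 was in the list of both Acvr1b and Rgmb, the pair of members with the highest r (0.937), so these lists are not independent. Each r is the highest found in a search of all 10296 tested genes over 9 means, and is a description. No member shared exonic bases with another gene in the annotation used.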

How the data were processed

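RNA was measured by strand-specific, single-end sequencing of poly(A) libraries of 35 samples. The authors deposited raw read counts per Ensembl gene in 1 table. The submitters' processing notes name TopHat2 2.1.0 and HTSeq 0.9.1 and the mouse build GRCm38 (mm10). Which annotation was counted, and with which strand option, is not given in the sources used here. Reads of overlapping genes may therefore be split.

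From these counts, 10296 of 52636 genes passed edgeR's filter on low counts. Libraries were scaled by TMM, with factors of 0.927 to 1.07. All 9 groups were fitted together with edgeR 4.0.16 (R 4.3.3, robust quasi-likelihood, 26 residual degrees of freedom), and p-values were adjusted by Benjamini and Hochberg over all tested genes. All adjusted p-values are from this edgeR test unless DESeq2 1.42.0 is named. Fold changes are log2 with their SE, and CPM are TMM-scaled. For patterns over groups a prior count of 2 was added before taking log2 CPM. Symbols, positions and exon lengths came from GENCODE M21 (GRCm38), which named 52403 genes. Promoter windows came from RefSeq, which matched 6 of the 7 members outside chromosome 18; windows of the 3 members on it were not used here. No replicate pair agreed within sampling noise (lowest chi-square per gene 3.92 over 51 pairs). Scripts were tested on simulated data.

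All 10 members are named in the text. Of the other pathway genes, up to 8 called ones with the lowest adjusted p are named for each comparison of KO with WT, and for each member called in at least 2 of those comparisons the 3 most similar genes. Members and lists were chosen with earlier results of these data known. Alternatives were RLE scaling, no filter, CPM of at least 1 in 4 libraries, only the compared libraries, DESeq2, a replicate block, centring on the mean log level, a covariate for sex (called from Xist and 4 Y-linked genes), each library left out and, added after seeing the data, a filter on low counts computed without the KO libraries. Same-numbered libraries deviated together in every pair (r above 0.1) for KO against Het in naive cells (0.144 to 0.262) and for WT memory against naive cells (0.206 to 0.31), which is a hint from the values, since the labels state no pairing. KO memory against naive cells came close (0.0995 to 0.322). The female library was replicate 3 in every KO and Het group. In WT, replicate 2 was female in all subsets, but replicate 3 was male in thymus and female in naive and memory cells. The main fit had no term for pairing.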

Additional observations from a re-analysis of the deposited data

Results flagged for a closer look

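Among 80 groups of 4 libraries, 4 held a library far from the others of its group, where chance gives about 1 in 20 groups. Rgmb was at 6.97 CPM in Het naive replicate 3, against 4.03 to 4.46 CPM in the other 3 libraries. Smad2 was at 165 CPM in KO naive replicate 4, below 174 to 175 CPM in the others, and at 211 CPM in Het memory replicate 3, above 181 to 185 CPM. Skil was at 81.8 CPM in Het thymus replicate 1, above 74.3 to 75.5 CPM.

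The KO effect on Smad3 differed between subsets by a test of the difference: it was larger in naive than in thymus cells by 0.728 on the log2 scale (SE 0.13, adjusted p = 0.000251, edgeR). In all 15 fits without 1 library the difference was called.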

How the results depend on the processing

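Over settings other than leaving out a library, 1494 of 1530 values kept direction and call, 16 lost a call, 20 gained one and none turned round. Leaving out 1 library kept 1432 of 1480, with 43 lost, 5 gained and none turned round. With no filter on low counts 3 members were called for memory against naive cells of WT mice, in place of 5. With the replicate block 1 member (Tgfbr1, -0.41, adjusted p = 0.0475) was called for the KO effect in memory against naive cells, in place of 0, and the block changed no other call of a member. With centring 5 were called for KO against Het in thymus, in place of 3. The calls among all genes were then 875 higher and 1525 lower, in place of 1221 and 750. Leaving out each library gave 4 to 7 calls for KO against Het in memory cells, 0 to 1 for the KO effect in memory against naive cells (1 without KO memory replicate 3 or WT memory replicate 1), and 3 to 5 for memory against naive cells of WT mice (3 without WT naive replicate 1 or WT memory replicate 3). For KO against WT the ranges were 3 to 4 in thymus, 5 to 6 in naive and 6 to 7 in memory cells. The causes were not tested, except that leaving out a library leaves fewer samples. Depth limits Rgmb most, at 5 to 89 counts per library.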
